A study of Mus musculus with 57 samples.

Results

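The genes described here encode the proteins of the cytosolic ribosome in the mouse kidney, and Rpl10a, whose protein carried the affinity tag of the experiment, is given on its own throughout. Members were the probe sets with exactly 1 gene symbol that follows the naming pattern of these proteins (Rpl or Rps and a number, plus Rplp0, Rplp1, Rplp2 and Rpsa), without pseudogenes and the Rps6k kinases. A gene with several probe sets was represented by the one with the highest mean over all arrays. This gave 63 genes of 19938 with a probe set of 1 symbol, and all 63 were tested. By name, 54 of them are subunit genes: 30 of the large subunit, 21 of the small subunit and the 3 stalk genes. Another 8 are paralogs or copies by name (Rpl3l, Rpl7l1, Rpl10l, Rpl32l, Rpl39l, Rps4l, Rps23rg1 and Rps27l), and Rps19bp1 encodes a protein that binds Rps19 and is no subunit. Medians below are over the 54 subunit genes, and counts of called genes are over the 63 unless the subunit genes are named.

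The study compared RNA bound to tagged ribosomes in 4 kidney cell populations after ischemia-reperfusion injury (IRI), in which the vessels of both kidneys were closed with clips for 28 min and the blood flow was then restored. In translating ribosome affinity purification (TRAP), an antibody to GFP captures ribosomes that hold an eGFP-L10a fusion. The RNA was hybridised to Affymetrix Mouse Gene 1.0 ST arrays, 57 in all in 19 groups. All mice were males of a background labelled as a mix of C57BL/6 and 129, though another label of the WT background mice gives C57BL/6 alone.

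Nephron arrays came from mice with Six2-Cre, interstitial arrays from mice with Foxd1-Cre, endothelial arrays from mice with Cdh5-Cre and myeloid arrays from mice with Lyz2-Cre. Each Cre opened the tag allele, which sits at Rosa26 behind the CAGGS promoter and a stop cassette, in the cells of its lineage. The labels name podocytes among the cells of the Foxd1-Cre line. Each of these lines had 3 arrays 24 h after IRI, 3 after sham surgery and 3 from mice without surgery, and the nephron line had 3 more at 4 h after IRI. The L10a background arrays (4 IRI at 24 h, 2 sham) came from mice with the tag allele and no Cre. Their labels describe leaky tagging of podocytes and some collecting duct cells, and give the allele both as homozygous and as heterozygous. The WT background arrays (4 IRI at 24 h, 2 sham) carried untagged kidneys through the same purification. Total RNA arrays (3 IRI at 24 h, 3 sham) held unpurified kidney RNA of mice heterozygous for the tag allele without Cre. Nephron mice were 8 weeks old after IRI or sham surgery and 6 weeks old without surgery. Myeloid mice were 9.5 weeks old after IRI and 7 weeks old after sham surgery or without surgery. Interstitial and endothelial mice were 6 weeks old, and background and total RNA mice 8 weeks old. Age therefore cannot be told apart from IRI in the myeloid line, nor from sham surgery in the nephron line. It also cannot be told apart from line where interstitial, endothelial or myeloid arrays are set against the WT background. The same holds for the myeloid line against the other lines without surgery.

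A cytosolic ribosome is built from a small subunit, which reads the message, and a large subunit, which joins the amino acids. A stalk of Rplp0, Rplp1 and Rplp2 on the large subunit recruits the elongation factors. The messages of ribosomal proteins are among the most abundant in most cells. In mammals they begin with a C followed by a run of pyrimidines, the terminal oligopyrimidine tract, through which mTOR signalling and Larp1 set how well they are translated. Their promoters often hold sites for factors of the Ets family.

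The tract lies at the transcription start, and these windows are shown because the messages of the family are known for it, as are some other translation genes. RefSeq promoters (build GRCm38.p6) hold 250 bases before and 50 bases from each annotated start. For 43 of the 54 subunit genes there were 50 such promoters. A C at the annotated start followed by at least 4 more C or T, read on the strand of the gene, was found in 9 of these 50 promoters, a share of 18%, against 2.51% of all 32851 promoters. An annotated start that lies some bases away from the real one hides the tract from this search. The letters CCGGAAG, the core of an Ets site, were found on either strand in 18 of the 50, or 36%, against 8.86% of all promoters. The following 5 genes have such a start; 25 bases before it and 25 bases from it are printed, and capitals mark the pyrimidine run from the start.
Rps6 (chr4:86857343-86857392, minus strand): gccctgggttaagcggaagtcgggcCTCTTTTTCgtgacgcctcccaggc
Rpl28 (chr7:4792940-4792989, plus strand): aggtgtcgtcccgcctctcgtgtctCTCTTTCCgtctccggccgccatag
Rps18 (chr17:33955641-33955690, minus strand): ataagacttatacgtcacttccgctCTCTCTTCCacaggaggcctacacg
Rpl38 (chr11:114668555-114668604, plus strand): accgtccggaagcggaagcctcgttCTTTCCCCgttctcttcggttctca
Rplp2 (chr7:141447626-141447675, plus strand): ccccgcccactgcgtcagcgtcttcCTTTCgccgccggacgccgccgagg
Rpl10a, the gene of the tagged subunit, has 2 annotated starts, and neither begins with such a run.
Rpl10a (chr17:28328446-28328495, plus strand): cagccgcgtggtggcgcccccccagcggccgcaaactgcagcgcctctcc
Rpl10a (chr17:28328540-28328589, plus strand): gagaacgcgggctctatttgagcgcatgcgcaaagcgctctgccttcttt
Rps3a1 and Rps12, the 2 genes of the small subunit with the highest change after IRI in interstitial cells, also lack it at the annotated start.
Rps3a1 (chr3:86142644-86142693, minus strand): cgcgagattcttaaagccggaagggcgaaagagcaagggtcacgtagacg
Rps12 (chr10:23787185-23787234, minus strand): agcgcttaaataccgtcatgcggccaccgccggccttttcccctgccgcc
Capitals are absent from these windows because no run was found there, which says only that these letters are not at this annotated position.

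Marker genes of each line were checked first. Without surgery, 6 of 6 endothelial, 6 of 6 myeloid and 6 of 6 interstitial markers were called higher in their own line than in the mean of the other Cre lines. The 6 myeloid markers were also called higher in the endothelial line, from 1.04 for Csf1r to 2.50 for Lyz2. Lymphocyte markers were called higher there too, Cd3g by 2.41, Cd3e by 1.61 and Cd79a by 0.50. Among neutrophil markers S100a8 (1.62) and S100a9 (1.76) were called higher there, while Ly6g and Retnlg were not called. The endothelial arrays thus also held messages of blood cells. Of the 6 nephron markers 4 were called higher in the nephron line, while Lrp2 and Cubn differed there by -0.11 and 0.09 and by 0.46 each in the myeloid line, none of them called. Nephron markers averaged 9.6 or more on the log2 scale in every TRAP group, so epithelial messages were present in all purifications. The collecting duct markers Fxyd4 (2.13), Aqp2 (1.47), Avpr2 (1.08) and Aqp3 (0.76) were called higher in the myeloid line without surgery. Of the podocyte markers Wt1 (0.87) and Nphs1 (0.63) were called higher there, and Podxl and Synpo were not called. The WT background sham arrays averaged 11.09 for interstitial markers, against 11.37 in interstitial sham arrays. The 6 total RNA arrays had median linear intensities of 43.9 to 53.3, and the 51 TRAP arrays 105.8 to 128.4, so levels were not compared between these kinds. In the total RNA group after IRI, replicate 3 stood apart, and results that rest on it are given with and without it. These are pooled RNA measurements, so a change in how many cells of a kind are in the kidney and a change in the message per cell cannot be told apart. Replicates are labelled as biological, and p-values measure the spread between these arrays. All values below are log2 intensities or differences of them, and a call means an adjusted p under 0.05 in limma with Benjamini-Hochberg adjustment over 19302 genes. Shares of all genes are at this adjusted threshold. Counts of members at an unadjusted p under 0.05 have no share of all genes at that level beside them, and are not to be set against the adjusted shares. Counts from other fits or with an array left out also lack the share of that fit, unless it is given.

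Ribosomal protein messages were higher 24 h after IRI than after sham surgery in nephron, interstitial and endothelial TRAP arrays, in both background sets and in total RNA, and not in myeloid TRAP arrays. The median of the subunit genes was 11.74, 11.70 and 11.79 in the nephron IRI arrays, against 11.33, 11.18 and 11.07 in the sham arrays. In the interstitial line it was 12.02, 11.98 and 11.98 after IRI and 11.16, 11.18 and 11.13 after sham surgery. No IRI array of these 2 lines overlapped a sham array. The endothelial arrays had medians of 12.01, 12.02 and 11.98 after IRI, against 11.50, 11.66 and 11.66 after sham surgery. Myeloid arrays stood at 11.75, 11.77 and 11.73 after IRI and at 11.66, 11.66 and 11.85 after sham surgery, with overlap. L10a background arrays had 11.96, 11.96, 12.04 and 12.06 after IRI, against 11.74 and 11.57 after sham surgery. WT background arrays lay lower, with 11.28, 11.04, 11.26 and 11.09 after IRI and 10.27 and 10.10 after sham surgery. Total RNA gave 10.39, 10.68 and 10.89 after IRI and 10.10, 10.04 and 10.12 after sham surgery, again without overlap.

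**Figure D1:**
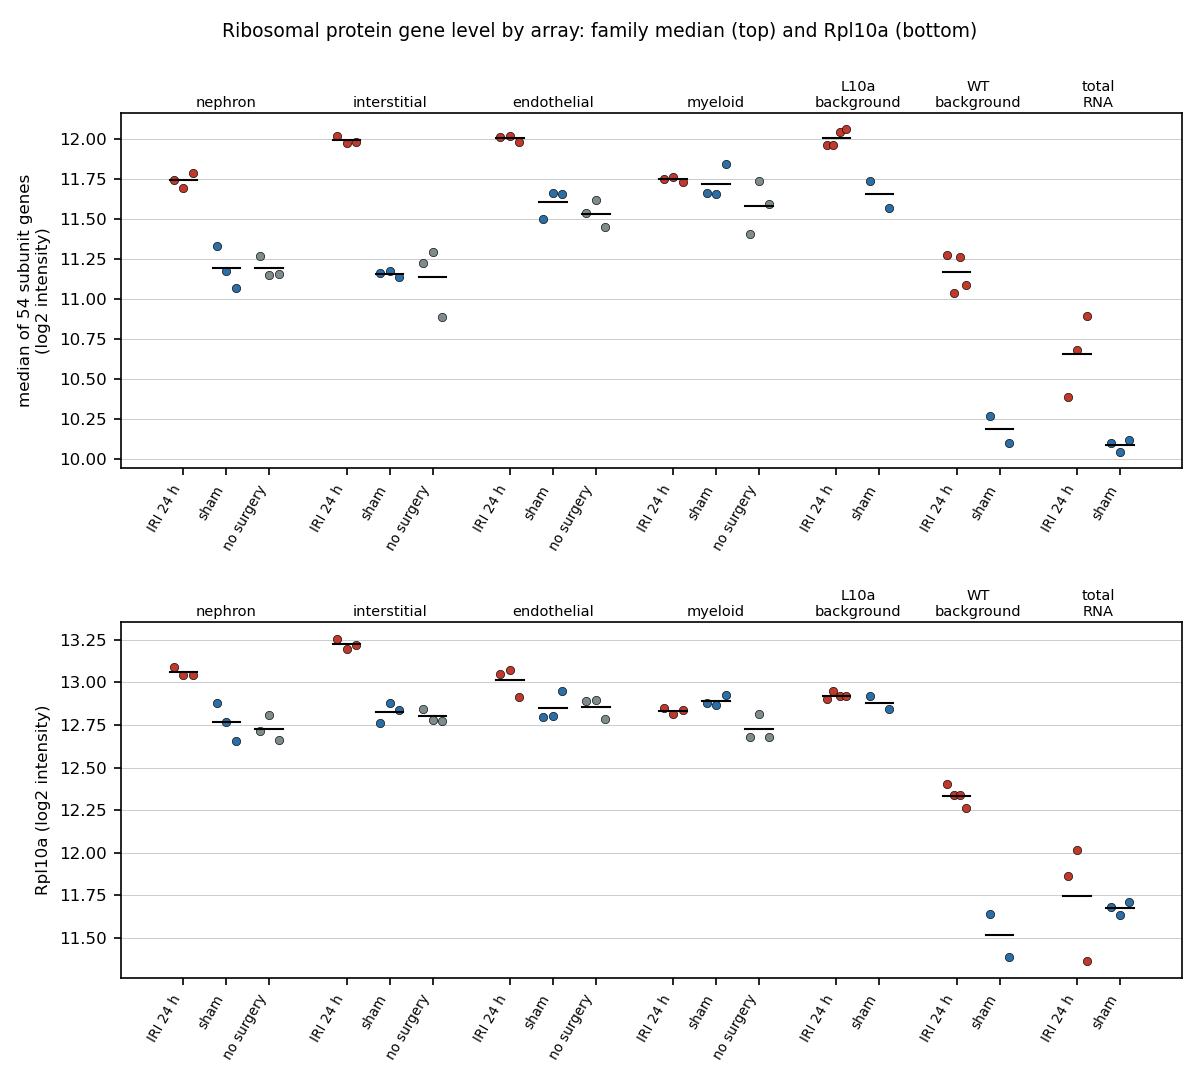
Median log2 intensity of the 54 subunit genes (top) and log2 intensity of Rpl10a (bottom) in each array, with 1 point per array and a bar at the group mean, for IRI at 24 h (red), sham (blue) and no surgery (grey). The 3 interstitial IRI arrays sit at 11.98 to 12.02 in the top panel, above all interstitial sham arrays at 11.13 to 11.18, while the myeloid groups overlap; the total RNA arrays were scaled apart and are read only against each other.

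In nephron cells the median change of the subunit genes was 0.38, with quartiles of 0.23 and 0.56, while the median over all genes was -0.04. Of the 63 genes 35 were called higher and 1 lower, where 13.8% of all tested genes were called higher and 14.7% lower. The interstitial line had the largest median among the Cre lines, 0.85 or 1.80-fold with quartiles of 0.60 and 1.13, against 0.05 over all genes. There 56 genes were called higher and 1 lower, against 19.2% and 19.9% of all genes. Of the 54 subunit genes only Rpl21 and Rpl22 were not called in interstitial cells, at 0.18 and 0.22. In the endothelial line the median was 0.38 against 0.07 over all genes, and 36 genes were called higher and 0 lower, against 21.1% and 21.7% of all genes. Limma called no member lower there at an unadjusted p under 0.05 either, and 43 were higher at that level.

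The myeloid line differed. The median change of the subunit genes was 0.04 against -0.02 over all genes, and 34 of the 54 changes were positive. Limma called 1 member higher and 5 lower, where 13.2% of all genes were called higher and 14.6% lower, and at an unadjusted p under 0.05 2 were higher and 5 lower. With each array's median subtracted, which moved the median over all genes to 0.11, 10 members were called higher and 0 lower, and with quantile normalization 0 and 3. Without replicate 2 of the myeloid sham arrays 0 were called higher and 3 lower. The lower subunit genes were Rps21, Rpl22, Rpl36a and Rpl7a.

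In the L10a background arrays 20 genes were called higher and 0 lower, against 19% and 19.4% of all genes, with a median change of 0.24 against 0.08 over all genes. At an unadjusted p under 0.05 30 members were higher and 0 lower in limma. This count moved with single arrays and with the fit: 7 were called without replicate 2 of the sham arrays, 13 without replicate 4 of the IRI arrays and 13 with the replicate block, and 44 with each array's median subtracted. The shares of all genes called in these fits are not given, so the counts do not show whether the members moved apart from other genes. In the WT background 57 genes were called higher and 0 lower, also at an unadjusted p under 0.05, against 20.2% and 17.7% of all genes. The median change there was 0.93 against 0.04 over all genes. Total RNA had 37 genes called higher and 3 lower, against 15.7% of all genes in each direction, and a median of 0.42 against 0.05 over all genes. Without IRI replicate 3 the total RNA counts were 39 higher and 1 lower and the median 0.33 against 0.04 over all genes, with 25.7% of all genes called in either direction. For the nephron, interstitial, endothelial, L10a background, WT background and total RNA comparisons the median of the subunit genes was above 0 under all scalings tried. Subtracting array medians moved the median over all genes to 0.26 in the endothelial line and 0.21 in the L10a background.

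**Figure D2:**
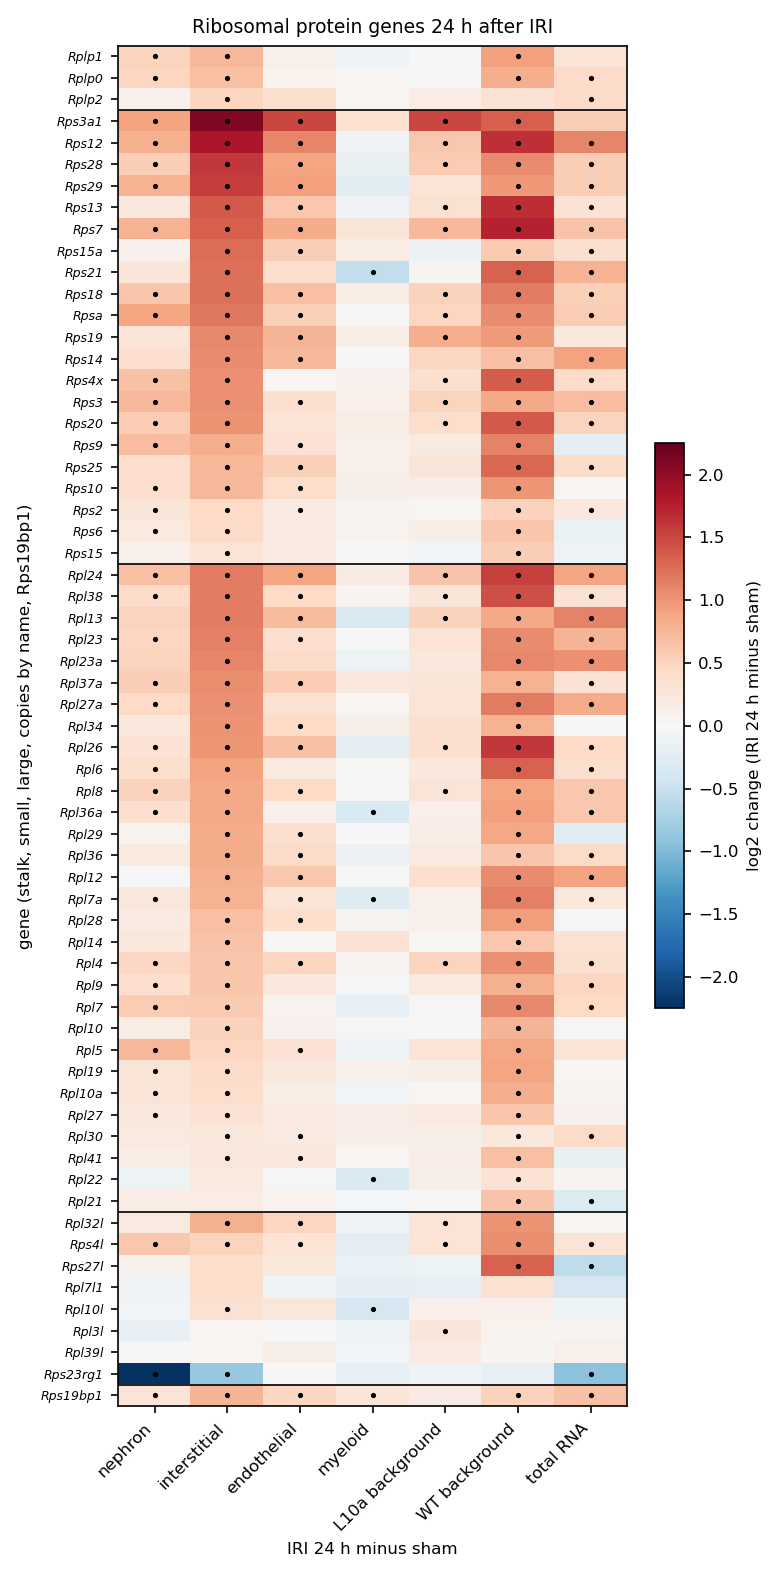
Change of each of the 63 genes 24 h after IRI relative to sham (log2, colour scale centred on 0, red higher after IRI) in the 4 Cre lines, the L10a and WT background arrays and total RNA, with genes grouped as stalk, small subunit, large subunit, copies by name and Rps19bp1. Black dots mark calls at adjusted p under 0.05 in limma; the interstitial and WT background columns are red with dots for nearly all subunit genes, the myeloid column is pale, and Rps23rg1 is dark blue in the nephron column.

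Small subunit genes had a higher median change than large subunit genes in each of the 6 comparisons in which the family was higher. In nephron cells the median change was 0.56 for the small subunit genes and 0.32 for the large subunit genes, and 14 of 21 and 17 of 30 were called higher. In interstitial cells the medians were 1.08 and 0.79, with 21 of 21 and 28 of 30 called. The endothelial medians were 0.54 and 0.33, with 16 of 21 and 17 of 30 called. In the WT background they were 1.06 and 0.88, and in total RNA 0.50 and 0.35. The difference between the subunits was not tested, because genes are not replicates.

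Among the small subunit genes, Rps3a1 had the highest change in nephron, interstitial and endothelial cells. Its levels in interstitial arrays were 10.03, 10.04 and 10.69 after IRI, against 7.73, 8.10 and 8.65 after sham surgery. The groups were apart by more than either one spanned, and the change was 2.09 ± 0.29 (SE, adjusted p = 1.2e-07 in limma). In endothelial arrays Rps3a1 had 9.85, 9.73 and 9.72 after IRI and 8.01, 8.25 and 8.55 after sham surgery, a change of 1.50 ± 0.29. Nephron arrays gave 9.96, 9.82 and 9.46 after IRI and 9.19, 8.72 and 8.62 after sham surgery, a smaller change of 0.90 ± 0.29 (adjusted p = 0.014, limma). In the L10a background Rps3a1 had 10.22, 10.30, 11.00 and 10.98 after IRI, against 9.37 and 8.86 after sham surgery, so these arrays too did not overlap. Total RNA showed 8.37, 8.72 and 10.18 after IRI and 8.10, 8.75 and 8.75 after sham surgery. Only replicate 3 of the total RNA IRI arrays stood above the sham arrays, and without it the difference was 0.01.

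Rps12, a small subunit protein, was second to Rps3a1 in interstitial cells, with levels of 10.98, 11.03 and 10.86 after IRI and 9.23, 9.03 and 9.13 after sham surgery. Its change there was 1.83 ± 0.21 (adjusted p = 3.9e-09, limma), and 1.10 ± 0.21 in endothelial cells and 0.80 ± 0.21 in nephron cells. In myeloid arrays Rps12 had 10.20, 10.61 and 10.37 after IRI, against 10.29, 10.40 and 10.71 after sham surgery, and the groups overlapped. Rps28 and Rps29, 2 of the smallest small subunit proteins, had changes of 1.59 ± 0.15 and 1.55 ± 0.15 in interstitial cells and of 0.90 ± 0.15 and 0.91 ± 0.15 in endothelial cells. Rps28 levels in the interstitial arrays were 11.63, 11.82 and 12.16 after IRI and 10.39, 9.96 and 10.49 after sham surgery, without overlap. In myeloid arrays Rps28 had 11.11, 11.25 and 11.07 after IRI and 11.20, 11.23 and 11.51 after sham surgery.

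Rpsa, also known as a precursor of the laminin receptor, had 11.65, 11.50 and 11.52 in nephron arrays after IRI, against 10.81, 10.58 and 10.59 after sham surgery. The change of 0.89 ± 0.12 (adjusted p = 1.2e-07, limma) was close in size to that of Rps3a1 in this line, with a smaller error. In interstitial cells Rpsa changed by 1.19 ± 0.12 and in endothelial cells by 0.54 ± 0.12, and in myeloid cells the difference was 0.02 ± 0.12. Rps7, a protein known to bind Mdm2, changed by 0.78 ± 0.15 in nephron cells and by 0.74 ± 0.16 in the L10a background. Rps19, the subunit most often mutated in Diamond-Blackfan anemia, was called higher in interstitial (1.08 ± 0.14), endothelial (0.77 ± 0.14) and L10a background arrays (0.82 ± 0.14) but not in nephron arrays, where the difference was 0.29 ± 0.14 with overlap (adjusted p = 0.10, limma). Rps6, the subunit phosphorylated by the S6 kinases, had small changes. Nephron arrays gave 12.88, 12.84 and 12.86 for Rps6 after IRI and 12.65, 12.67 and 12.60 after sham surgery, a change of 0.22 ± 0.08 (adjusted p = 0.038, limma). In interstitial cells Rps6 changed by 0.44 ± 0.08, and its endothelial difference of 0.18 ± 0.08 was not called.

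Stalk genes followed the family in nephron and interstitial cells. Rplp0, the base of the stalk, had 12.38, 12.52 and 12.44 in nephron arrays after IRI, against 12.11, 11.76 and 12.00 after sham surgery. It changed by 0.49 ± 0.10 there, by 0.68 ± 0.10 in interstitial cells and by 0.82 ± 0.10 in the WT background. The endothelial, myeloid and L10a background differences of Rplp0 were 0.09, 0.04 and -0.01, each with an SE of 0.10, and none was called. Of the 3 stalk genes 2 were called higher in nephron arrays and 3 in interstitial arrays, and 0 in endothelial or L10a background arrays at the same threshold. The endothelial difference of Rplp2 was 0.35 ± 0.16 (adjusted p = 0.074, limma). The shares of all genes called higher, given above for each comparison, apply here too, and 3 genes are too few to set against them.

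Among the large subunit genes, Rpl24, which forms a bridge to the small subunit, changed in 6 of the 7 comparisons. Its nephron levels were 11.51, 11.30 and 11.45 after IRI and 11.02, 10.66 and 10.58 after sham surgery. In interstitial arrays Rpl24 had 11.83, 11.75 and 11.87 after IRI, against 10.66, 10.66 and 10.62 after sham surgery, with a gap far wider than the spread. Rpl5, which carries the 5S RNA into the ribosome and binds Mdm2, had the highest change of the large subunit genes in nephron cells. It changed by 0.74 ± 0.12 in nephron cells, 0.49 ± 0.12 in interstitial cells and 0.33 ± 0.12 in endothelial cells. The myeloid difference of Rpl5 was -0.10 ± 0.12 (adjusted p = 0.60, limma). Rpl21, a large subunit protein, differed by 0.17, 0.18 and 0.08 in nephron, interstitial and endothelial cells, and was not called in any of them. In total RNA Rpl21 was called lower, at -0.32 ± 0.09 (adjusted p = 0.0049, limma), but not without IRI replicate 3, where the difference was -0.19 (adjusted p = 0.12, limma).

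In myeloid arrays the called subunit genes were lower. Rps21, a small subunit protein, had 9.72, 9.93 and 9.76 after IRI, against 10.13, 10.38 and 10.54 after sham surgery, a change of -0.55 ± 0.20 (adjusted p = 0.041, limma). Rpl22, a large subunit protein with a known role in T cell development, had 8.66, 8.78 and 8.66 after IRI and 9.02, 9.00 and 9.14 after sham surgery. Rpl36a had 11.48, 11.67 and 11.42 after IRI and 11.87, 11.78 and 11.97 after sham surgery. None of these 3 genes overlapped between the groups. The same Rps21 was called higher in interstitial cells, with 9.71, 9.96 and 9.75 after IRI against 8.44, 8.52 and 8.74 after sham surgery.

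In total RNA, Rpl13, a large subunit protein, had the highest change, 1.12 ± 0.20, with 9.44, 9.47 and 11.14 after IRI and 8.84, 8.96 and 8.88 after sham surgery. Replicate 3 carried much of it, and without that array the change of Rpl13 was 0.56. Rps12 changed by 1.11 ± 0.21 in total RNA, and by 0.80 without that array. Rpl12, a protein at the base of the stalk, changed by 0.91 ± 0.14 at a low level, with 5.77, 5.53 and 5.92 after IRI against 5.01, 4.67 and 4.81 after sham surgery.

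Copies and paralogs by name did not move as 1 group. Rps23rg1 fell in nephron and interstitial cells and in total RNA. It is a mouse retroposed copy of Rps23 that encodes a membrane protein and no subunit. Its nephron levels were 6.95, 6.64 and 6.93 after IRI, against 9.10, 9.28 and 8.84 after sham surgery, a change of -2.23 ± 0.18 (adjusted p = 5.4e-13, limma). Interstitial arrays had 6.83, 6.70 and 6.69 after IRI and 8.17, 7.27 and 7.32 after sham surgery, a change of -0.85 ± 0.18 (adjusted p = 1.5e-04, limma). In both lines the IRI arrays lay below every sham array. In total RNA Rps23rg1 had 5.46, 5.40 and 5.91 after IRI, against 5.98, 6.70 and 6.87 after sham surgery, a change of -0.93 ± 0.18. The endothelial, myeloid, L10a background and WT background differences lay between -0.19 and 0.00, and none was called.

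**Figure D3:**
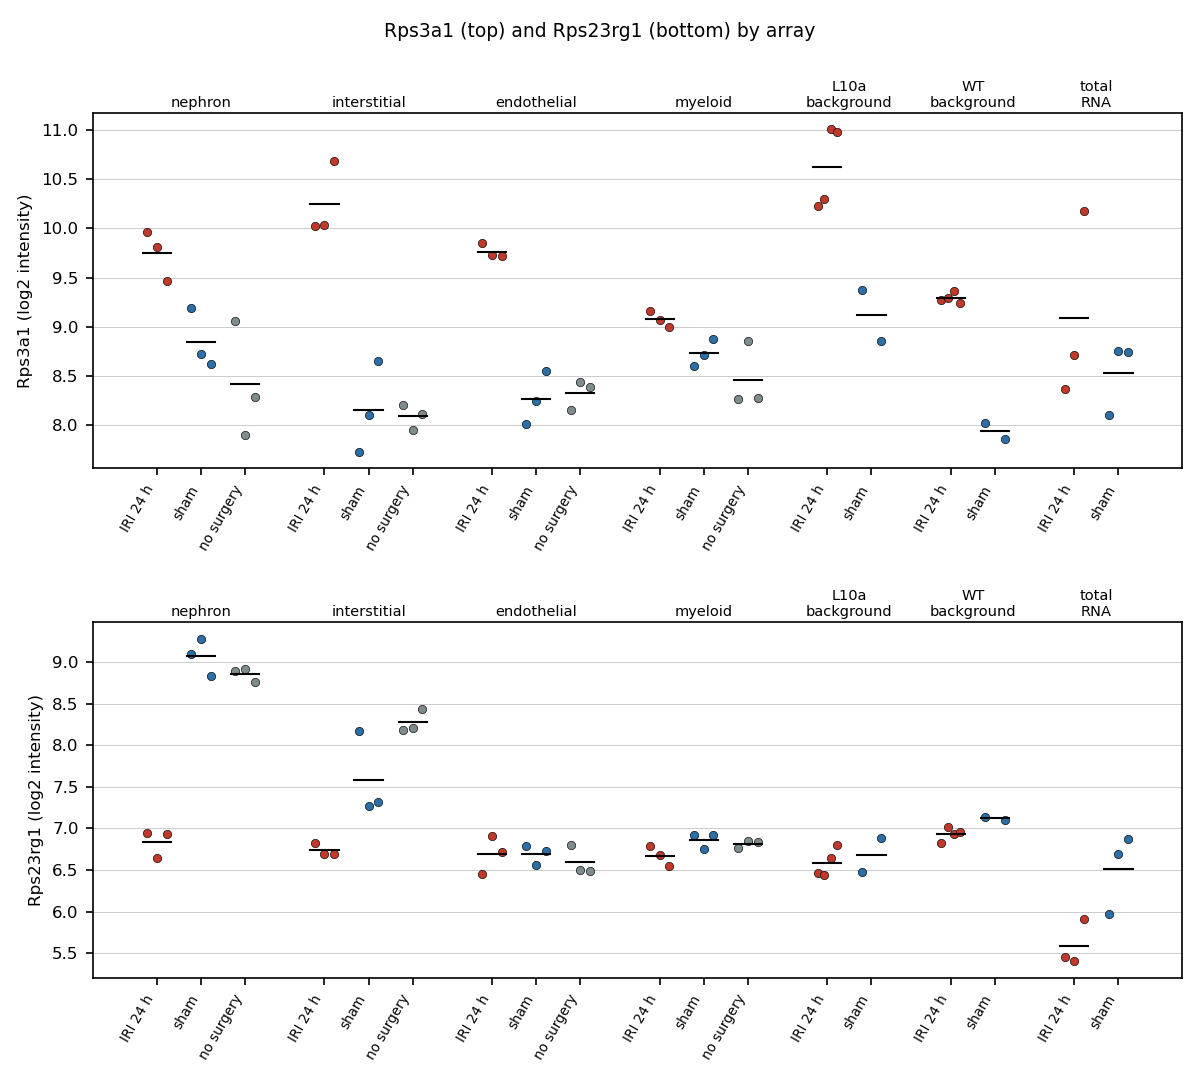
Log2 intensity of Rps3a1 (top) and Rps23rg1 (bottom) in each array, with 1 point per array and a bar at the group mean, for IRI at 24 h (red), sham (blue) and no surgery (grey). Rps23rg1 lies at 6.64 to 6.95 in the nephron arrays after IRI and at 8.76 to 9.28 in the nephron sham and no-surgery arrays; the total RNA arrays were scaled apart.

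Rps27l, a paralog of Rps27 that p53 is known to induce, was called higher in the WT background, where it had 10.82, 10.61, 10.95 and 10.73 after IRI against 9.64 and 9.25 after sham surgery. In nephron arrays Rps27l stood at 12.15, 12.20 and 12.20 after IRI and 12.19, 12.05 and 12.01 after sham surgery, and the groups overlapped. It was called lower in total RNA, at -0.57 ± 0.19, with 10.52, 10.62 and 8.94 after IRI and 10.69, 10.53 and 10.58 after sham surgery. That call rested on IRI replicate 3, and without it the difference was -0.03 (adjusted p = 0.88, limma). Rps19bp1, whose protein binds Rps19, was called higher in 6 of the 7 comparisons, the myeloid line included (0.28 ± 0.09, adjusted p = 0.012, limma). Rpl39l and Rpl3l, paralogs known from testis and muscle, averaged 5.07 and 6.49 in nephron IRI arrays, against 5.09 and 6.69 in nephron sham arrays, and were called in none of the 4 Cre lines. Rpl3l was called higher in the L10a background (0.27 ± 0.10, adjusted p = 0.023, limma). Rpl10l, a testis paralog of Rpl10, was called lower in myeloid arrays (-0.39 ± 0.13) and higher in interstitial arrays (0.34 ± 0.13), where 1 of 3 IRI arrays, at 7.41, stood apart from 6.78 and 6.60.

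Rpl10a encodes the subunit that carried the tag, and its probe sets may read the fusion transcript as well as the gene, which was not tested. The Rpl10a level in nephron arrays was 13.09, 13.04 and 13.04 after IRI, against 12.88, 12.77 and 12.65 after sham surgery, a change of 0.29 ± 0.08 (adjusted p = 0.0068, limma). Without replicate 3 of the nephron sham arrays this change was 0.24 (adjusted p = 0.063, limma). In interstitial arrays Rpl10a had 13.26, 13.20 and 13.22 after IRI and 12.76, 12.88 and 12.84 after sham surgery, a change of 0.40 ± 0.08. In neither line did the groups overlap. Endothelial arrays had 13.05, 13.07 and 12.92 after IRI and 12.80, 12.81 and 12.95 after sham surgery, with overlap, and the difference of 0.16 was not called (adjusted p = 0.12, limma). It was called in 3 alternatives, at 0.35 with array medians subtracted, 0.18 as the mean over probe sets and 0.16 in a fit of the TRAP arrays alone. Myeloid levels of Rpl10a were 12.85, 12.81 and 12.84 after IRI, against 12.88, 12.87 and 12.93 after sham surgery, a difference of -0.06.

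In the L10a background Rpl10a had 12.90, 12.95, 12.92 and 12.92 after IRI and 12.92 and 12.85 after sham surgery, a difference of 0.04. The untagged WT background gave 12.40, 12.34, 12.34 and 12.26 after IRI, against 11.64 and 11.39 after sham surgery. That change, 0.82 ± 0.09, was the highest of Rpl10a in any of the 7 comparisons. Total RNA had 11.86, 12.01 and 11.36 after IRI and 11.68, 11.64 and 11.71 after sham surgery. The difference of 0.07 was not called with all arrays, and was 0.26 (adjusted p = 0.0022, limma) without IRI replicate 3, the only IRI array below the sham arrays.

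The IRI difference of Rpl10a lay below the median of the subunit genes in each of these 7 comparisons, with -0.06 against 0.04 in the myeloid line. The Rpl10a level minus the mean of the other subunit genes in the same array, used only to follow how this gap moves, was 1.79 ± 0.04 in nephron IRI arrays and 1.91 ± 0.02 in nephron sham arrays (SD, n = 3 each). It was 1.69 ± 0.03 in interstitial IRI arrays and 2.17 ± 0.07 in interstitial sham arrays (SD, n = 3 each). Endothelial arrays had 1.54 ± 0.09 after IRI and 1.80 ± 0.06 after sham surgery (SD, n = 3 each), and myeloid arrays 1.60 ± 0.06 and 1.66 ± 0.06 in the same order. All 4 probe sets of Rpl10a gave the same direction in nephron cells (0.26 to 0.35), in interstitial cells (0.34 to 0.42) and in the WT background (0.79 to 0.82). Over the 17 TRAP groups, the members whose group means were most like those of Rpl10a by Pearson correlation were Rpl19 (0.96), Rps25 (0.94), Rpl27 (0.94), Rpl36a (0.93) and Rps27l (0.92). Groups of purified and background arrays share purification and array scaling, and these values are a description.

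Comparison with the WT background sets the tagged arrays beside RNA that came through the purification without a tag. All 5 tagged groups share the WT background arrays, so their values stand side by side. After IRI the median difference of the subunit genes was 0.46 in the nephron line, 0.72 in the interstitial line, 0.68 in the endothelial line, 0.40 in the myeloid line and 0.74 in the L10a background, with medians over all genes between -0.06 and 0.00. In the nephron line 39 members were called higher and 2 lower, against 25.3% and 18.7% of all genes. The interstitial line had 52 and 0, against 17.8% and 16.3%, with 1 member lower at an unadjusted p under 0.05 in limma. The endothelial line had 45 and 1, against 26.5% and 23%, the myeloid line 38 and 1, against 27.8% and 30.4%, and the L10a background 49 and 1, against 26.1% and 20.4%. Rps29 was the highest or among the 4 highest members in all 5, with 1.57 ± 0.14 in the nephron line and 1.76 ± 0.14 in the endothelial line. Rpl12 was called lower in the 4 groups other than the interstitial line, at -0.96 ± 0.13 in the nephron line and -0.43 ± 0.13 in the endothelial line, joined by Rpl5 at -0.39 ± 0.11 in the nephron line. Rpl12 is a dim probe set, with 5.72, 5.94 and 5.70 in nephron IRI arrays, against 6.62, 6.40, 6.95 and 7.02 in WT background IRI arrays.

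The differences from the WT background were larger in sham arrays. In sham arrays the subunit genes had a median difference of 1.04 in the nephron line, 0.84 in the interstitial line, 1.23 in the endothelial line, 1.43 in the myeloid line and 1.41 in the L10a background, while the medians over all genes lay between -0.07 and 0.07. Members called higher and lower were 57 and 0 in the nephron line, against 28.8% and 19.5% of all genes. They were 44 and 0 in the interstitial line, against 22.2% and 19.8%, and 56 and 0 in the endothelial line, against 29.5% and 26.4%. The myeloid line had 58 and 0, against 28.3% and 24.8%, and the L10a background 58 and 0, against 27.6% and 23%. At an unadjusted p under 0.05 limma had 1 member lower in each of the nephron and endothelial lines and 0 in the others. Rps27l had the highest difference of any member in all 5, from 2.07 ± 0.21 in the interstitial line to 2.85 ± 0.23 in the L10a background. Rps13, a small subunit protein, differed by 1.91 ± 0.13 in the nephron line and 2.40 ± 0.15 in the L10a background. With array medians subtracted the median over all genes was -0.24 in the interstitial line, -0.29 in the endothelial line, -0.22 in the myeloid line and -0.24 in the L10a background.

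Rpl10a was higher than in the WT background in every tagged group. The difference after IRI was 0.72 in the nephron line, 0.89 in the interstitial line, 0.68 in the endothelial line, 0.50 in the myeloid line and 0.59 in the L10a background. In sham arrays it was 1.25, 1.31, 1.33, 1.38 and 1.37 in the same order of groups. All 10 differences were called in limma, and no tagged array overlapped a WT background array.

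**Figure D4:**
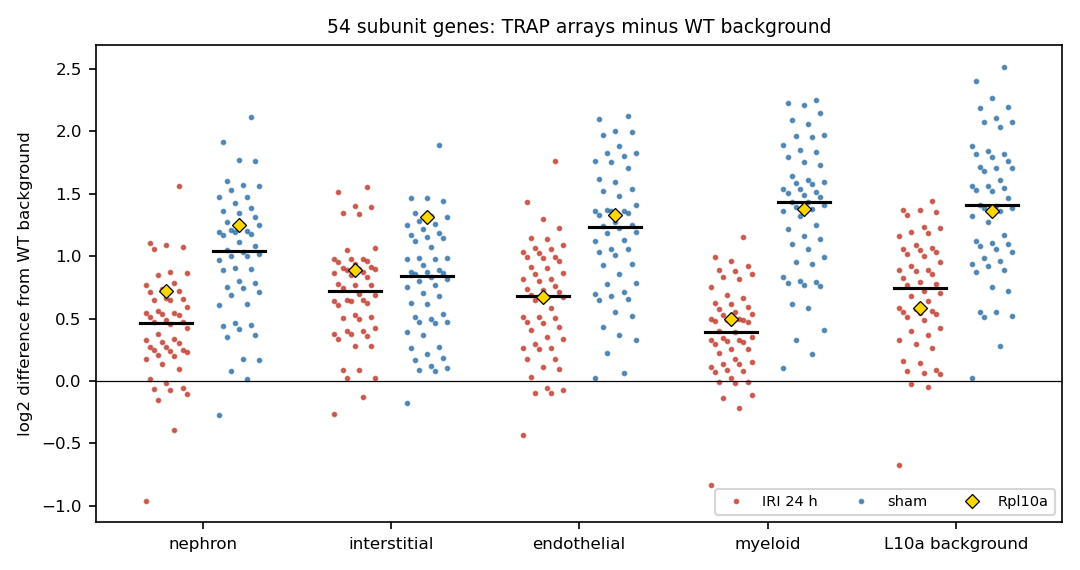
Log2 difference of each of the 54 subunit genes between the tagged arrays and the WT background, after IRI at 24 h (red) and after sham surgery (blue), with 1 dot per gene, a bar at the median and a gold diamond for Rpl10a. In every group the bar is lower after IRI (0.40 to 0.74) than after sham surgery (0.84 to 1.43), and the lowest red dot of the nephron, endothelial, myeloid and L10a background groups is Rpl12.

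The IRI response of each tagged group minus that of the WT background was added after the first results were seen. In the nephron line 0 members were called higher and 39 lower, against 9.9% and 12.6% of all genes, with a median of -0.52 for the subunit genes against -0.08 over all genes. The interstitial line had 1 higher and 8 lower, against 5.06% and 9.56%, with a median of -0.16 against 0.01. The endothelial line had 0 and 37, against 11% and 16.7%, and a median of -0.54 against 0.02. In the myeloid line 0 and 51 were called, against 12.1% and 15%, with a median of -0.96 against -0.06. The L10a background had 0 and 44, against 7.92% and 13.7%, and a median of -0.70 against 0.03. At an unadjusted p under 0.05 limma had 0 members higher in the 4 groups with a count of 0. Rpl26, a large subunit protein known to regulate p53 translation, differed by -1.25 ± 0.16 in the nephron line and by -1.78 ± 0.16 in the myeloid line. The interstitial gene called higher was Rps15a, at 0.67 ± 0.18 (adjusted p = 0.0095, limma). Rpl10a differed by -0.53 in the nephron line, -0.42 in the interstitial line, -0.66 in the endothelial line, -0.88 in the myeloid line and -0.78 in the L10a background, and was called in all 5. Only 2 WT background sham arrays enter each of these values. Without the second of them the counts called lower were 17 in the nephron line and 23 in the endothelial line, and the interstitial line had 2 higher and 0 lower. With array medians subtracted the interstitial line had 4 higher and 2 lower and a median over all genes of 0.15, and the endothelial line had 1 higher and 19 lower with 0.27 over all genes.

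Responses of the 4 Cre lines were compared with each other by subtracting from each response the mean of the other 3, so the contrasts share arrays. The interstitial response was the larger one, with 42 members called higher and 0 lower, also at an unadjusted p under 0.05, against 7.67% and 7.87% of all genes, and a median of 0.61 for the subunit genes against 0.04 over all genes. Rps12 led with 1.22 ± 0.25 (adjusted p = 4.3e-04, limma), beside Rps21 at 1.20 ± 0.24, Rps3a1 at 1.18 ± 0.33 and Rps28 at 1.16 ± 0.17. The myeloid response was the smaller one, with 1 member higher and 44 lower, against 9.29% and 8.93%, and a median of -0.48 against -0.03. Rps29 and Rps12 were lowest there, at -1.32 ± 0.17 and -1.32 ± 0.25, and Rpl10a differed by -0.34 ± 0.10 (adjusted p = 0.010, limma).

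Neither the nephron nor the endothelial response stood apart for the family as a whole. In the nephron line 2 members were called higher and 4 lower, against 11.8% and 11.2%, with a median of -0.02 against -0.06 over all genes. Rps23rg1 was the lowest at -1.88 ± 0.21 (adjusted p = 4.1e-09, limma), and Rpl5 the highest at 0.50 ± 0.13 (adjusted p = 0.0049, limma). The direction of the median depended on scaling: quantile normalization gave 7 higher and 3 lower with a median of 0.06, and subtracting array medians gave 1 and 10 with a median of -0.14 against -0.18 over all genes. In the endothelial line 1 was higher and 2 lower, against 13.6% and 14.9%, with a median of -0.01 against 0.07. Array medians subtracted gave 7 and 1 with a median of 0.10 against 0.18, and quantile normalization 1 and 5.

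The nephron TRAP response minus the total RNA response had 2 members called higher and 2 lower, against 1.41% and 1.99% of all genes, and a median of 0.06 against -0.06. Rps9, a small subunit protein, was higher by 0.90 ± 0.17 (adjusted p = 0.0019, limma), with 11.79, 11.64 and 11.79 in nephron IRI arrays and 11.27, 10.95 and 10.93 in nephron sham arrays. In total RNA Rps9 stood at 9.22, 9.75 and 9.20 after IRI and 9.74, 9.52 and 9.53 after sham surgery, with overlap. The other called members were Rpl21 at 0.49 ± 0.12, Rpl12 at -0.89 ± 0.20 and Rps23rg1 at -1.30 ± 0.25. These counts were also 2 and 2 without total RNA IRI replicate 3, with 3.13% of all genes called, but were 6 higher and 6 lower without replicate 1 and 11 and 5 without replicate 2.

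At 4 h after IRI the nephron response was already present for some members and of opposite sign for others. The only sham arrays of this line were taken at 24 h and serve both times, so the 2 responses share them. The sample numbers of the 4 h arrays lie apart from the run of all other arrays. Any difference in handling that goes with this cannot be told apart from time, against sham or against 24 h. Limma called 17 members higher and 4 lower at 4 h, against 7.6% and 10.8% of all genes, with a median of 0.16 for the subunit genes against -0.05 over all genes. Rpl5 over no surgery, sham, 4 h and 24 h had 11.27, 11.11 and 11.14, then 11.24, 11.18 and 11.10, then 12.05, 12.16 and 12.08, then 12.01, 11.87 and 11.86. Both injury groups lay above all uninjured arrays, with a change at 4 h of 0.93 ± 0.12 (adjusted p = 6.1e-08, limma). Rpl7, a large subunit protein, went the same way, with 11.66, 11.79 and 11.70 at 4 h and 11.42, 11.40 and 11.39 at 24 h, against 10.92, 10.77 and 10.79 after sham surgery. Its change was 0.89 ± 0.14 at 4 h and 0.57 ± 0.14 at 24 h. Rpl10a had 13.05, 13.10 and 13.09 at 4 h, a change of 0.31 ± 0.08 (adjusted p = 0.0057, limma), and without replicate 3 of the sham arrays 0.26 (adjusted p = 0.058, limma).

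Rpl26, Rpl22, Rpl10 and Rps23rg1 were called lower at 4 h. Rpl26 had 9.34, 9.47 and 9.40 at 4 h and 10.16, 10.15 and 10.23 at 24 h, against 10.01, 9.81 and 9.71 after sham surgery. It thus lay below all sham arrays at 4 h (-0.44 ± 0.11, adjusted p = 0.0035, limma) and above them at 24 h (0.33 ± 0.11). Rpl22 had 8.53, 8.82 and 8.71 at 4 h and 9.04, 8.92 and 8.91 at 24 h, against 9.13, 9.03 and 9.05 after sham surgery and 8.80, 8.49 and 8.46 without surgery. Relative to mice without surgery, Rpl22 was higher after sham surgery. Rps23rg1 was stepwise lower, with 7.78, 7.30 and 7.67 at 4 h and 6.95, 6.64 and 6.93 at 24 h, and every array of a later time lay below every array of an earlier one. The count at 4 h moved with single arrays, to 7 higher and 4 lower without sham replicate 2, 5 and 4 without sham replicate 3, 5 and 4 without 4 h replicate 2 and 9 and 3 without 4 h replicate 3.

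**Figure D5:**
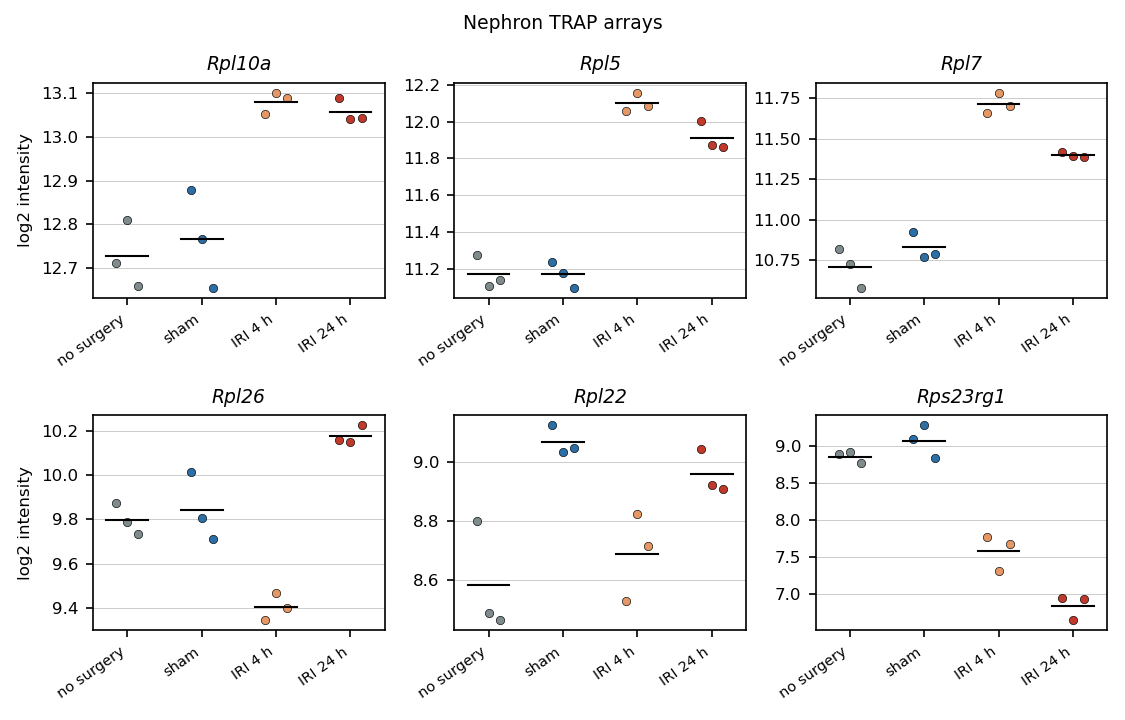
Log2 intensity of Rpl10a, Rpl5, Rpl7, Rpl26, Rpl22 and Rps23rg1 in nephron TRAP arrays over no surgery, sham surgery, 4 h and 24 h after IRI, with 1 point per array and a bar at the group mean; each panel has its own scale. Rpl5 and Rpl7 are above both uninjured groups at 4 h and 24 h, Rpl26 is lowest at 4 h (9.34 to 9.47) and highest at 24 h (10.15 to 10.23), and Rps23rg1 is lower at 24 h than at 4 h.

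Between 4 h and 24 h 22 members were called higher and 2 lower at 24 h, against 14.8% and 12.7% of all genes, and the median of the subunit genes was 0.22 against 0.00. The highest were Rpl26 at 0.78 ± 0.11, Rpl37a at 0.62 ± 0.11, Rpsa at 0.61 ± 0.12 and Rps29 at 0.60 ± 0.15, and the lower ones were Rps23rg1 at -0.74 ± 0.18 and Rpl3l at -0.25 ± 0.09. These counts were 14 and 1 without 24 h replicate 3, 12 and 3 without 4 h replicate 1 and 12 and 1 without 4 h replicate 3.

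Sham surgery moved few members. In the nephron line 2 were called higher and 1 lower than without surgery, against 0.746% and 0.99% of all genes. These were Rpl22 (0.49 ± 0.10, adjusted p = 0.0055), Rps29 (0.54 ± 0.15, adjusted p = 0.044) and Rpl21 (-0.34 ± 0.09, adjusted p = 0.032) in limma. In the interstitial line 0 were higher and 3 lower, against 5.37% and 4.7%, with 0 and 15 at an unadjusted p under 0.05 in limma. The interstitial count called lower was near the share over all genes. The lower ones were Rps23rg1 (-0.69 ± 0.18), Rpl7a (-0.26 ± 0.07) and Rpl10 (-0.21 ± 0.07). Leaving out 1 array moved these counts, to between 0 and 2 in the nephron line and to between 0 and 6 in the interstitial line. Without nephron no-surgery replicate 3, or without interstitial sham replicate 2, none was called, and without interstitial no-surgery replicate 3 6 were. The endothelial line had 0 and 0, against 0.332% and 0.518%, and 0 and 0 at an unadjusted p under 0.05 in limma. The myeloid line had 0 and 0, against 0.394% and 1.19%, with 16 and 0 at an unadjusted p under 0.05 and a median of 0.18 against 0.03 over all genes. These shares hold for adjusted calls, and none is given for the unadjusted counts.

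Without surgery members were called in each line, but over both directions together their counts were near or below the shares over all genes. The split between higher and lower differed between lines. Each line was set against the mean of the other 3, so the values share arrays. The myeloid line had 20 members called higher and 4 lower, against 16.7% and 20.6% of all genes, with a median of 0.15 against -0.04. The endothelial line had 18 and 3, against 20.7% and 20.2%, with a median of 0.12 against -0.02. The interstitial line had 2 and 19, against 12.9% and 19.5%, and a median of -0.18 against -0.05. The nephron line had 6 and 20, against 29% and 22%, and a median of -0.14 against 0.06. That nephron split turned with scaling, to 21 higher and 6 lower and a median of 0.07 against 0.27 over all genes with array medians subtracted, and was 5 and 31 with quantile normalization. The endothelial split became 11 and 8 with array medians subtracted and 24 and 1 with quantile normalization. Single arrays counted too: 6 and 11 were called for the nephron line without its replicate 3, 2 and 5 for the interstitial line without its replicate 3, 11 and 2 for the endothelial line without its replicate 2 and 12 and 3 for the myeloid line without its replicate 2.

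Rps3, a small subunit protein that also acts in DNA repair, was among the members with the largest differences in all 4 lines without surgery. It had 10.62, 10.49 and 10.50 in nephron arrays, 10.91, 10.79 and 9.93 in interstitial arrays, 11.53, 11.62 and 11.30 in endothelial arrays and 11.61, 11.76 and 11.63 in myeloid arrays. Nephron and interstitial arrays of Rps3 overlapped and lay below all endothelial and myeloid arrays, which overlapped with each other. Rps23rg1 was high in nephron and interstitial cells, with 8.89, 8.91 and 8.76 in nephron arrays, 8.18, 8.21 and 8.44 in interstitial arrays, 6.80, 6.50 and 6.49 in endothelial arrays and 6.77, 6.85 and 6.84 in myeloid arrays. Endothelial and myeloid arrays overlapped for Rps23rg1, and the nephron difference from the other lines was 1.63 ± 0.15 (adjusted p = 7.4e-13, limma). Rpl10a differed by -0.07 to 0.11 between the lines and was not called, but with quantile normalization it was called at -0.23 for the nephron line and 0.27 for the endothelial line.

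Other genes of the translation machinery moved as follows at 24 h after IRI. Of 58 tested genes of ribosome biogenesis, 39 were called higher and 0 lower in nephron cells with a median of 0.54, against 13.8% and 14.7% of all genes. In interstitial cells they were 51 and 0 with a median of 1.01, against 19.2% and 19.9%, and in endothelial cells 44 and 3 with a median of 0.65, against 21.1% and 21.7%. The myeloid line had 19 higher and 1 lower with a median of 0.18, against 13.2% and 14.6%, and Rrp12, a factor of pre-ribosome export, changed there by 0.89 ± 0.15. Nop58, a core protein of box C/D small nucleolar RNPs, changed by 1.34 ± 0.16 in nephron cells and 2.05 ± 0.16 in interstitial cells, and at 4 h in nephron cells by 1.51 ± 0.16. At 4 h 12 of the 58 were called higher and 3 lower, with a median of 0.12, against 7.6% and 10.8% of all genes. The background sets had 39 and 2 in the L10a arrays, against 19% and 19.4%, and 37 and 0 in the WT arrays, against 20.2% and 17.7%. Total RNA had 44 and 0, against 15.7% in each direction.

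Of 18 tested translation genes known for a terminal oligopyrimidine tract, 11 were called higher and 0 lower in nephron cells, 14 and 0 in interstitial cells, 11 and 0 in endothelial cells and 2 and 2 in myeloid cells. The shares of all genes called higher and lower, given beside the biogenesis genes, apply to these counts too, and the myeloid counts are near them. Their medians were 0.26, 0.41, 0.39 and 0.11 in that order of lines. Npm1, a nucleolar chaperone, changed by 1.06 ± 0.13 in nephron cells and 1.62 ± 0.13 in interstitial cells, and Eef1b2, an elongation factor subunit, by 1.45 ± 0.11 in interstitial cells. Mitochondrial ribosomal protein genes differed between comparisons. In nephron cells 4 of 77 were called higher and 17 lower with a median of -0.17, against 13.8% and 14.7% of all genes, and in myeloid cells 5 and 15 with a median of -0.14, against 13.2% and 14.6%. Interstitial cells had 10 and 5 with a median of 0.06, against 19.2% and 19.9%. The endothelial counts of 19 and 18, with a median of 0.08, were near the 21.1% and 21.7% of all genes. In the WT background 32 of the 77 were higher and 6 lower with a median of 0.27, against 20.2% and 17.7%. The L10a background had 7 and 25 with a median of -0.16, against 19% and 19.4%, and total RNA 10 and 18 with a median of -0.08, against 15.7% in each direction.

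Among 17 tested regulators of ribosomal protein synthesis, Myc, which drives transcription of ribosome genes, changed by 2.70 ± 0.20 in nephron cells, 2.82 ± 0.20 in interstitial cells and 1.41 ± 0.20 in endothelial cells, and by 2.60 ± 0.20 at 4 h in nephron cells. In the WT background Myc changed by 3.30 ± 0.21 and in total RNA by 3.56 ± 0.20. The myeloid Myc difference of -0.48 was not called. Eif4ebp1, the translation repressor released by mTOR signalling, changed by 1.12 ± 0.15 in nephron cells and 1.02 ± 0.15 in interstitial cells. Its endothelial and myeloid differences of 0.26 and 0.13 were not called. Mtor was called lower in nephron (-0.64), interstitial (-1.08), endothelial (-0.69), WT background (-0.78) and total RNA arrays (-0.63), but not in myeloid or L10a background arrays. Larp1 was called higher in interstitial (0.44), endothelial (0.76), myeloid (0.55) and L10a background arrays (0.53), and in no other comparison with sham at 24 h. Counts of the list were 6 higher and 2 lower in nephron cells, against 13.8% and 14.7% of all genes, and 7 and 4 in interstitial cells, against 19.2% and 19.9%. They were 7 and 4 in endothelial cells, against 21.1% and 21.7%, and 7 and 1 in myeloid cells, against 13.2% and 14.6%. The counts called lower in interstitial and endothelial cells were near those shares.

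Markers of neutrophils moved with IRI in several of the same comparisons. The mean over the 4 markers was 8.40 to 8.59 in the interstitial IRI arrays, against 6.13 to 6.30 in sham arrays, with 4 of 4 called higher. It was 10.88 to 11.08 after IRI and 7.75 to 8.91 after sham surgery in the endothelial line, and 11.30 to 11.92 and 8.07 to 8.63 in the same order in the myeloid line, with 4 of 4 higher in both. WT background arrays had 6.44 to 7.87 after IRI, against 6.16 to 6.20 after sham surgery, with 4 of 4 called higher. In nephron and L10a background arrays 0 of 4 were called, with means of 6.41 to 7.12 and 6.39 to 6.57 after IRI and 6.18 to 6.28 and 6.08 to 6.11 after sham surgery. Total RNA had 5.34 to 6.04 after IRI and 4.84 to 4.92 after sham surgery, with 3 of 4 called higher (S100a8, S100a9 and Retnlg).

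Markers of other cells moved as well. Alas2, the erythroid enzyme of heme synthesis and the only erythroid marker tested, was called higher in interstitial (2.24), endothelial (1.64) and WT background arrays (1.49), and in none of the other 4 comparisons. Its interstitial levels were 8.38 to 9.75 after IRI and 6.36 to 7.41 after sham surgery. In nephron arrays 3 of 6 endothelial markers were called higher, Emcn by 1.19, Cdh5 by 0.94 and Pecam1 by 0.69, and the mean of the list was 7.48 to 7.81 after IRI and 7.07 to 7.28 after sham surgery. Of 6 myeloid markers in nephron arrays, Cd68 was called higher by 3.27 and Csf1r lower at -1.13, and the list averaged 7.40 to 7.67 after IRI and 6.97 to 7.07 after sham surgery. Endothelial markers had 3 of 6 called higher and 1 lower in each background set. Of 6 nephron markers 3 were called lower in nephron arrays, 4 in interstitial arrays, 5 in myeloid arrays, 3 in each background set and 6 in total RNA, and endothelial arrays had 1 higher and 2 lower. The collecting duct markers Avpr2, Aqp2, Fxyd4 and Aqp3 were called lower in myeloid arrays, at -2.58, -1.53, -1.11 and -1.09. In the L10a background they were called lower at -4.09, -1.12, -0.62 and -0.88. Avpr2 was also called lower in nephron (-1.62), interstitial (-1.51), endothelial (-2.07), WT background (-0.93) and total RNA arrays (-1.66). Aqp3 was called lower in nephron arrays (-1.05) and Aqp2 in interstitial arrays (-0.79). The remaining differences of these markers in those comparisons were not called. Of the myeloid markers in myeloid arrays, Cx3cr1 (-2.93) and Adgre1 (-1.04) were called lower and Itgam (1.43) higher. Cx3cr1, Csf1r and Adgre1 were called lower in interstitial arrays, at -1.44, -1.27 and -1.64, and in endothelial arrays, at -3.67, -1.30 and -1.11. WT background arrays had them called lower at -0.91, -1.36 and -1.73, with Itgam (1.31) and Cd68 (1.63) called higher. In interstitial arrays Itgam (1.83) was called higher. In endothelial arrays the lymphocyte markers Cd3g (-1.89) and Cd3e (-0.97) were called lower, and Cd79a was not called. The line's own markers Tek (-1.77) and Tie1 (-0.65) were called lower there and Cdh5 (0.67) higher. Interstitial arrays had Cspg4 (-1.38) called lower and no other interstitial marker called. The part of these cells in the changes of the ribosomal protein genes was not tested.

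Over the 54 subunit genes the correlation of mean level and change was 0.19 in nephron cells, -0.15 in interstitial cells, -0.24 in endothelial cells and -0.03 in myeloid cells. It was -0.19 in the L10a background, 0.12 in the WT background and -0.33 in total RNA, given as a description across genes that share arrays. Genes with a pyrimidine run at an annotated start, 9 in all, had median changes of 0.24 in nephron, 0.72 in interstitial, 0.40 in endothelial and 0.08 in myeloid cells. The 34 genes with promoters and no such run had 0.38, 0.88, 0.35 and 0.03 in the same order of lines, so the order of the 2 sets differed between lines. In the L10a background, the WT background and total RNA the medians were 0.14, 0.94 and 0.32 with the run and 0.30, 0.99 and 0.41 without it. Of the 39 members with several probe sets, all probe sets of a gene had the same sign of change in 39 in the nephron, interstitial and WT background comparisons, in 38 in the endothelial line and in 32 in the myeloid line. Ribosomal protein genes have many processed pseudogenes of near-identical sequence, whose transcripts or antisense copies the probes may read, so values of single members are uncertain in that respect. RefSeq holds 27 more symbols of the pattern that were not analysed here, 20 of them named only in probe sets shared with other genes.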

How the data were processed

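The values used are the authors' deposited probe set intensities on a linear scale, summarised with RMA in Affymetrix Expression Console 1.3.1 per the submitters' processing notes. The plan assumed log2 values, so log2 was taken first. RMA scales arrays processed together to a common distribution, so a change is relative to the other genes of an array. The deposited arrays did not all share 1 distribution. Median linear intensities were 43.9 to 53.3 in total RNA and 105.8 to 128.4 in TRAP arrays. Probe sets with 1 symbol gave 19938 genes, and 19302 of them, those that exceeded 5 on the log2 scale in 3 arrays or more, were tested.

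One model with a coefficient per group was fitted to all 57 arrays in limma 3.58.1 (R 4.3.3; residual df 38, prior df 3.18, median residual SD 0.154). Benjamini-Hochberg adjustment ran over all tested genes, with calls at 0.05. Errors are SE of this fit, or SD where stated. Members and lists were chosen with earlier results of these data known, and responses against the WT background response were added after seeing the data. Genes named were Rpl10a, the 4 highest and 4 lowest called members of a comparison, a panel of 13 (10 measured) called list genes with the largest change and the 5 members most like Rpl10a; others, such as Rpl24 in nephron cells or Rpl21 outside total RNA, were chosen after their values were seen. Replicate numbers were checked for pairing: 12 of 52 same-number pairs of arrays correlated above 0.1 after removing group means, so they were not treated as pairs. On simulated data, 32%, 70%, 92% and 100% of genes changed 1.25, 1.5, 2 and 4-fold were recovered in the nephron IRI comparison, with 3.92% false calls. The simulation had independent normal noise and 50 changed genes at each fold among 19302. Far more genes were called in the real comparison, so these rates need not hold there. The number of arrays limits the precision. Alternatives were quantile normalization, subtraction of array medians, no filter, the mean over probe sets, TRAP arrays alone, the replicate block and leaving out each array. Tables and figures used Python 3.11.15, pandas 2.3.3 and matplotlib 3.10.9.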

Additional observations from a re-analysis of the deposited data

Results flagged for a closer look

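The IRI responses differed between lines in the interaction contrasts, each tested in limma. Against the mean of the other lines, 42 of the 63 genes differed for the interstitial line, where 7.67% of all genes were called higher and 7.87% lower, and 45 for the myeloid line, against 9.29% and 8.93%. The nephron line had 6, against 11.8% and 11.2%, and the endothelial line 3, against 13.6% and 14.9%, so both were below the share over all genes. Rps23rg1, the retroposed copy of Rps23, differed by -1.88 for the nephron line, 1.09 for the endothelial line and 0.83 for the myeloid line, and Rpl10a by -0.34 for the myeloid line. Between nephron TRAP and total RNA 4 genes differed, against 1.41% of all genes higher and 1.99% lower, Rps23rg1 among them at -1.30.

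Against the response of the WT background, 39 genes differed for the nephron line, where 9.9% of all genes were called higher and 12.6% lower, and 9 for the interstitial line, against 5.06% and 9.56%. The count was 37 for the endothelial line, against 11% and 16.7%, 51 for the myeloid line, against 12.1% and 15%, and 44 for the L10a background, against 7.92% and 13.7%. The interstitial count was near the share over all genes. Rpl10a differed by -0.53, -0.42, -0.66, -0.88 and -0.78 in that order of groups, and Rps23rg1 by -2.04 for the nephron line.

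Single arrays lay apart from the rest of their group in 3 of 90 combinations of a gene and a group tested, where chance gives about 1 in 20. In the L10a background after IRI, replicate 4 was lowest for Rpl24 at 11.76 (the others were 11.90, 11.89 and 11.91) and highest for Rps29 at 11.79 (11.69, 11.69 and 11.70). In the WT background after IRI, replicate 3 was highest for Rps19 at 10.45 (10.10, 10.14 and 10.16).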

How the results depend on the processing

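Counts of members called in the nephron, interstitial, WT background and total RNA comparisons at 24 h stayed within 1.5 times the main one under every alternative run. With array medians subtracted, members called were 56 in the endothelial line, 10 in the myeloid line, 44 in the L10a background, 1 for interstitial sham surgery, 11 for the nephron and 8 for the endothelial response against the other lines, and 20 for the endothelial response against the WT background. The median of subunit genes then reversed to 0.066 for the nephron line without surgery and to 0.10 for the endothelial response, and Rpl10a was 0.35 in the endothelial line (adjusted p = 3.5e-04, limma) and -0.28 (0.094) for the interstitial response against the WT background. With quantile normalization members called were 3 in the myeloid line, 10 for the nephron response (median reversed to 0.061) and 6 for the endothelial response, and Rpl10a was called at 0.27 in total RNA, -0.23 for the nephron and 0.27 for the endothelial line without surgery, and 0.27 for the interstitial response. In the TRAP arrays alone, which give no value for total RNA, members called were 7 for nephron and 6 for interstitial sham surgery, 5 for the endothelial response and 20 for the interstitial response against the WT background, and Rpl10a was called at 0.16 in the endothelial line and 0.27 for the interstitial response. The mean over probe sets gave Rpl10a 0.18 in the endothelial line. With the replicate block 13 members were called in the L10a background, and no other count of members moved by over 1.5 times and no Rpl10a call changed. Same-number arrays correlated between -0.58 and 0.51, and in 0 of 7 sets of groups did every pair exceed 0.1. The cause of these changes was not tested.

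Leaving out 1 array at a time, members called ranged from 3 to 6 in the myeloid line, 7 to 19 in the L10a background, 9 to 21 at 4 h, 13 to 24 between 4 h and 24 h, 0 to 2 for nephron and 0 to 6 for interstitial sham surgery. Without surgery they ranged from 17 to 28 in the nephron, 7 to 23 in the interstitial, 13 to 24 in the endothelial and 15 to 27 in the myeloid line. Against the total RNA response they were 3 to 16, and against the WT background response 17 to 40 in the nephron, 2 to 13 in the interstitial and 23 to 38 in the endothelial line. Rpl10a ranged from 0.24 to 0.35 in nephron cells at 24 h, 0.26 to 0.37 at 4 h, -0.064 to 0.26 in total RNA, 0.23 to 0.29 for the interstitial response, 0.030 to 0.36 for the nephron response against total RNA (called at 0.36 without total RNA IRI replicate 2) and -0.55 to -0.30 for the interstitial response against the WT background. Groups of 2 to 4 arrays limit every count given here. The shares of all genes called in these fits are not given, so a count of members may have moved along with them.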

Other observations

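Without surgery, mitochondrial ribosomal protein genes were high in the nephron line: 62 of 77 were called higher and 0 lower than the mean of the other lines, with a median difference of 0.54, against 29% and 22% of all genes and a median of 0.06 over all genes, while the median of the 54 cytosolic subunit genes was -0.14.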
